A study of Mus musculus with 24 samples.

Results

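The change in miRNAs between 12 h and 3 days after spinal cord injury (SCI) was described in the sensorimotor cortex of juvenile mice. The 6 libraries labelled as injured at P15 were used, 3 sampled at 12 h and 3 at 3 days, out of 24 in the series. The mice were C57BL/6J males whose cervical spinal cord was completely transected with a needle at P15, and the methods give no transgene. In the SHAM controls of the same age (3 libraries at each time) the cord was exposed and left intact. The labels call these libraries wt or control, with a wild type genotype, and they were read as the SHAM mice of the methods. Injured mice of P90 (3 libraries at each time) had the same lesion. The P90 SHAM libraries entered no comparison. The methods name the whole sensorimotor cortex in one place and its layer V in another, and state that samples were collected individually. The P15 mice grew older by the interval between the times, so time after injury, age and any difference in preparation between the 2 sets of libraries cannot be told apart from these 6 libraries.

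MicroRNAs are RNAs of about the length of the reads sequenced here. A hairpin precursor is cleaved into a duplex, 1 or both strands (the 5p and the 3p arm) are loaded into an Argonaute protein, and the seed at the 5′ end of the loaded strand pairs with target mRNAs and lowers their translation or stability. miRNAs with the same seed form a family. The juvenile cortex is still maturing at P15: axons are being myelinated and synapses refined. Corticospinal motor neurons, whose axons the lesion cuts, have their cell bodies in layer V of this tissue, at a distance from the wound. In bulk tissue, fewer cells of a type and less RNA per cell cannot be told apart.

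The small RNA libraries were made with high definition adapters, which carry degenerate nucleotides at the ligating ends, and held 22537211, 10306576 and 21344186 reads at 12 h against 44026755, 37963374 and 37397074 at 3 days. A count of 3 reads corresponded to 0.133, 0.291 and 0.141 RPM (reads scaled to a fixed library total) at 12 h and to 0.0681, 0.0790 and 0.0802 RPM at 3 days. Depth was therefore higher in every library of 3 days. The share of reads assigned to miRNAs was 77.0 to 77.7% at 12 h and 68.7 to 70.6% at 3 days, and fragments of mitochondrial tRNA took 0.469 to 0.610% and 1.48 to 1.61% of reads. No pair of replicate libraries agreed within the counting noise, and all 6 were kept as separate samples. Counts below are normalised counts within these 6 libraries unless another set is named.

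The mature sequences of the miRNAs on which the results turn are given first, from RefSeq (GRCm38.p6), 5′ to 3′, with the seed (bases 2 to 8) in capitals. The first 3 share the miR-29 seed and rose together at 3 days.
miR-29a-3p: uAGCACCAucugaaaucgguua
miR-29b-3p: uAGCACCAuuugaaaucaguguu
miR-29c-3p: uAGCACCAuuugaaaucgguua

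The let-7 seed is shown for 4 members of an abundant family that was lower at 3 days.
let-7a-5p: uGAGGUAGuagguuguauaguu
let-7c-5p: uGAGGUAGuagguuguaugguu
let-7f-5p: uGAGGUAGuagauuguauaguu
let-7g-5p: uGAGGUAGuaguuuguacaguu

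The seed of miR-17 recurs in miRNAs of 3 paralogous clusters. Of the 6 tested miRNAs with this seed, the following are shown.
miR-17-5p: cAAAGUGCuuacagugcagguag
miR-20a-5p: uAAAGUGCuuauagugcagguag
miR-93-5p: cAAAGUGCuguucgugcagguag
miR-106b-5p: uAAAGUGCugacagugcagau

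The next sequences are a pair of miR-7 3p arms and a pair of epithelial miRNAs, shown because the members of each pair carry 1 seed.
miR-7b-3p: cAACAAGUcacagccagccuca
miR-7a-2-3p: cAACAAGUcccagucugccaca
miR-141-3p: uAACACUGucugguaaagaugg
miR-200a-3p: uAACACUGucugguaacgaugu

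The remaining sequences belong to miRNAs described one by one because their change was large for their level.
miR-136-5p: aCUCCAUUuguuuugaugaugg
miR-384-3p: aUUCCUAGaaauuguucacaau
miR-879-5p: aGAGGCUUauagcucuaagcc
miR-540-5p: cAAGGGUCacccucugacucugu
miR-744-5p: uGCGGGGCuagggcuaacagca
miR-146a-5p: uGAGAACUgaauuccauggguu
miR-1224-5p: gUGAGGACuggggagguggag
miR-671-5p: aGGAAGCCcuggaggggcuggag
miR-1298-5p: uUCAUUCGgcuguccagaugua

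Between 12 h and 3 days after injury, the P15 cortex gained miR-29b-3p, miR-136-5p and miR-384-3p and lost miR-744-5p and miR-146a-5p, all abundant miRNAs. Of 925 miRNAs with a mean normalised count of at least 5, 243 changed (26.3%), with an adjusted p under 0.05 in edgeR's quasi-likelihood test: 133 rose (14.4%) and 110 fell (11.9%). A log2 fold change past 1 in size was reached by 68 of them (7.35%), which are called differentially expressed (DE), 44 upregulated (4.76%) and 24 downregulated (2.59%) at 3 days. With scaling by total reads the DE split was 28 upregulated and 53 downregulated, since that scaling moved the median log2 fold change of all miRNAs from 0.03 to -0.20. After a length correction it was 34 and 29. The libraries of the 2 times did not overlap for 406 of the 925 (43.9%). The median size of the log2 fold change over all 925 was 0.36, so most miRNAs changed little.

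**Figure D1:**
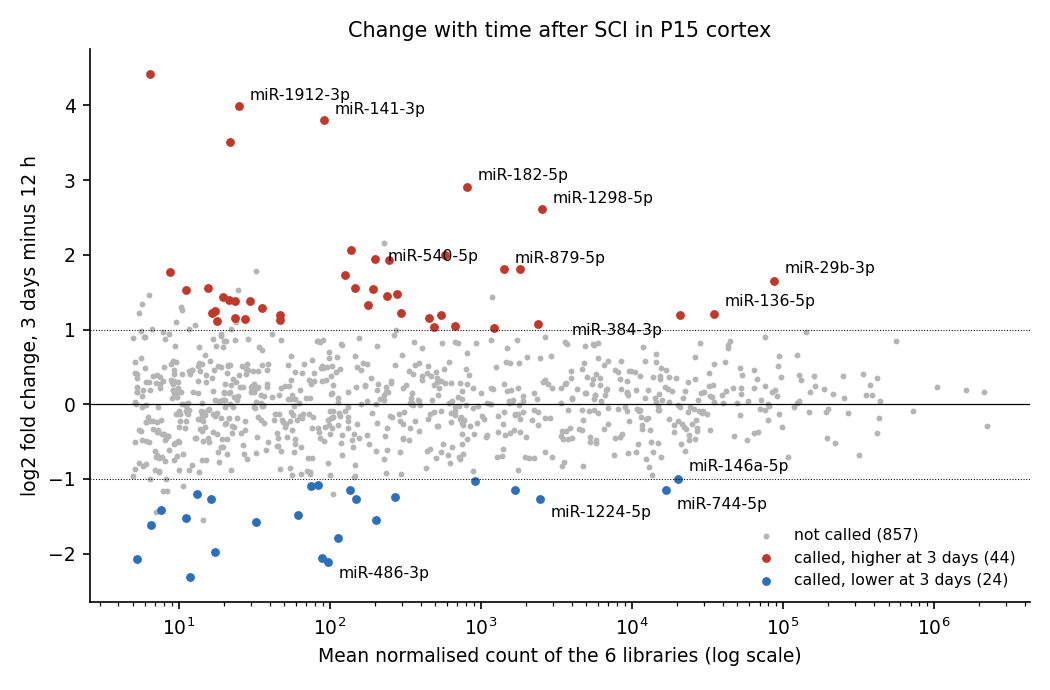
Each point is 1 miRNA, with its mean normalised count over the 6 libraries (log axis) against its log2 fold change at 3 days relative to 12 h, dotted lines at a log2 change of 1 in either direction, and miR-935-5p, which had no reads at 12 h, left off. The 44 upregulated miRNAs (red, 43 drawn) and the 24 downregulated ones (blue) lie over the whole range of levels, and most of the other 857 (grey) lie near 0.

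miR-29b-3p was the most abundant of the DE miRNAs. Its normalised counts were 51431, 37541 and 38652 at 12 h and 116625, 135690 and 147114 at 3 days, a mean of 42541 ± 7719 (SD, n = 3) against 133143 ± 15403, with no overlap. The log2 fold change was 1.65 (SE 0.14, adjusted p = 0.000141). The arm is encoded at 2 loci, 1 of them at chr1:195037091-195037113 on the plus strand (GRCm38).

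miR-136-5p, a miRNA of the imprinted Dlk1-Dio3 domain that lies antisense to an exon of Rtl1 at chr12:109595331-109595352 (plus strand), had 20347, 20181 and 23214 normalised counts at 12 h and 48112, 50009 and 49060 at 3 days. The 3 libraries of each time were close to each other and far from the other time (log2 fold change 1.21, SE 0.09, adjusted p = 0.00013). miR-384-3p, on the minus strand of the X chromosome (chrX:105344292-105344313), went from 13263, 10974 and 13464 to 27358, 26210 and 33032 (1.20, SE 0.12, adjusted p = 0.00029). All 3 libraries of 3 days were above those of 12 h. Both values were 0.97 with scaling by total reads. The call of miR-384-3p was also lost in the fit of all P15 libraries.

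miR-879-5p, from an intron of 9330182L06Rik (chr5:9375714-9375734, plus strand), had 554, 606 and 749 normalised counts at 12 h and 1900, 2712 and 2080 at 3 days. Among DE miRNAs with at least 1000 counts on average and no overlap between the times, this rise was the steepest (log2 fold change 1.81, SE 0.18, adjusted p = 0.00029). miR-24-1-5p, the passenger arm of miR-24, had 820, 797 and 825 counts at 12 h and 1533, 1622 and 1796 at 3 days. The change of miR-24-1-5p lay at the fold limit (1.02, SE 0.12, adjusted p = 0.000612), and the call was lost in 8 of 17 alternative settings that kept all 6 libraries.

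Among less abundant miRNAs the rises were larger. miR-540-5p of the Dlk1-Dio3 domain (chr12:109586085-109586107) had 75.7, 91.8 and 82.0 normalised counts at 12 h and 344, 305 and 302 at 3 days (log2 fold change 1.94, SE 0.16, adjusted p = 0.000141). miR-1251-5p, from an intron of the neural lincRNA gene Rmst, had 165, 246 and 285 at 12 h and 768, 989 and 1018 at 3 days (1.999, SE 0.22). miR-202-5p, best known from the gonads, went from 44.4, 38.6 and 73.6 to 293, 215 and 161 (2.06, SE 0.29). For these 3 miRNAs the lowest library of 3 days was above the highest of 12 h, which was a condition for naming them. miR-3106-5p, in an intron of Csmd1, had 46.8, 55.5 and 117 counts at 12 h and 192, 273 and 196 at 3 days (1.56, SE 0.32, adjusted p = 0.0066). The call of miR-3106-5p was lost in the fit of all P15 libraries.

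miR-744-5p fell most clearly among abundant miRNAs. It lies in an intron of Map2k4, a kinase of the JNK pathway (chr11:65734799-65734820, minus strand), and had 26536, 23520 and 19547 normalised counts at 12 h and 9765, 10826 and 10781 at 3 days. The libraries of 3 days were close together and all below those of 12 h (log2 fold change -1.15, SE 0.12, adjusted p = 0.00029). miR-671-5p, from the Chpf2 gene, had 2425, 2291 and 2279 counts at 12 h and 949, 1099 and 1098 at 3 days, with the same log2 fold change of -1.15 (SE 0.12). After a correction for GC content both were just inside the fold limit, at -0.97 and -0.95. Both calls were also lost in the fit of all P15 libraries.

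miR-146a-5p, which NF-κB induces and which restrains inflammatory signalling, had 22586, 23551 and 35263 normalised counts at 12 h and 13391, 11074 and 16203 at 3 days. The third library of 12 h stood highest and no library of 3 days reached the level of 12 h. The log2 fold change was -1.001 (SE 0.19, adjusted p = 0.00426), at the fold limit. It was -0.77 without that library, -0.99 without the first library of 3 days and -0.90 without the second. The call was also lost with the replicate block (-0.99), with reads of 20 to 24 nt alone and in the fit of all P15 libraries.

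miR-1224-5p, a mirtron that is spliced out of an intron of Vwa5b2, had 3044, 3407 and 4018 normalised counts at 12 h and 1657, 1609 and 1088 at 3 days (log2 fold change -1.27, SE 0.18, adjusted p = 0.00131). miR-486-3p, from an intron of the erythroid membrane gene Ank1, had 196, 145 and 137 counts at 12 h and 41.6, 32.1 and 37.2 at 3 days. It was the steepest fall of any miRNA with non-overlapping libraries and a mean count of at least 50 (-2.11, SE 0.21, adjusted p = 0.00029). miR-149-3p, from an intron of Gpc1, was uneven at 12 h, with 67.3, 162 and 201 counts against 35.4, 46.5 and 20.2 at 3 days (-2.06, SE 0.41, adjusted p = 0.00578). The calls of miR-1224-5p and miR-149-3p were lost in the fit of all P15 libraries.

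The other large falls among miRNAs with a mean count of at least 50 and no overlap were of miR-1247-5p (-1.80, SE 0.32), miR-466k (-1.56, SE 0.18), miR-214-3p (-1.48, SE 0.28), miR-6240-3p (-1.27, SE 0.23), miR-1188-5p (-1.24, SE 0.21) and miR-669o-5p (-1.16, SE 0.27) on the log2 scale. miR-214-3p is made from Dnm3os, an RNA of mesenchymal cells, and its normalised counts were 85.3, 128 and 61.5 at 12 h and 29.1, 37.7 and 29.1 at 3 days. The other arm, miR-214-5p, was also DE (-1.62, adjusted p = 0.0388). miR-1247-5p lies in an exon of Dio3os, at the end of the Dlk1-Dio3 domain, and had 193, 232 and 104 counts at 12 h against 34.7, 64.1 and 51.8 at 3 days. miR-6240-3p was at -0.997 without the first library of 12 h. miR-669o-5p lost its call without the first library of 12 h (-0.88), the second (adjusted p = 0.052) or the third of 3 days (-0.98), and miR-466k was at -0.85 when only the most abundant sequence of the arm was counted. In the fit of all P15 libraries the calls of miR-1247-5p, miR-466k, miR-1188-5p and miR-669o-5p were lost.

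**Figure D2:**
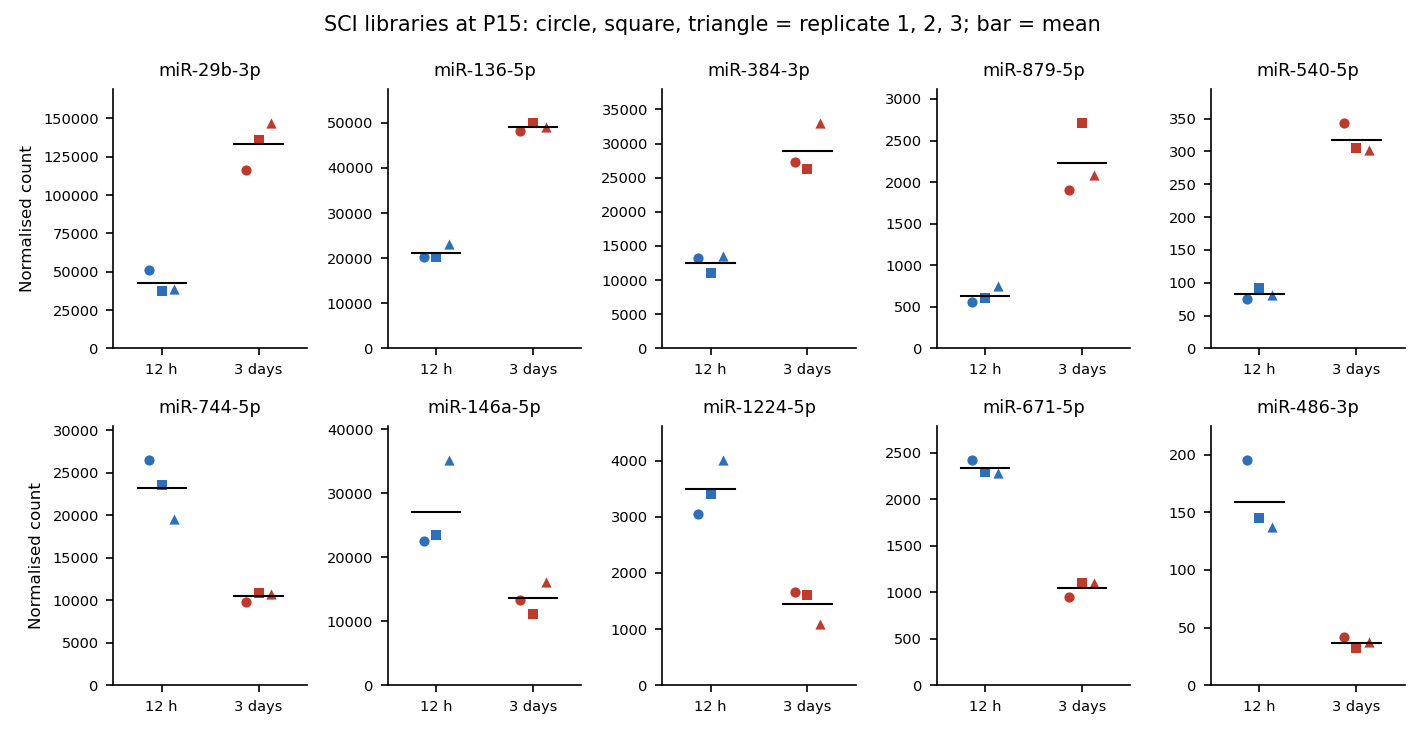
Normalised counts (from 0) of 5 miRNAs that rose and 5 that fell, by time, with the circle, square and triangle for replicates 1, 2 and 3 and the bar for the mean. The 3 libraries of 3 days lie above those of 12 h in each panel of the upper line (miR-29b-3p 116625 to 147114 against 37541 to 51431) and below them in each panel of the lower line.

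The miR-29 family rose as a group. These miRNAs repress collagens, DNA methyltransferases and pro-apoptotic BH3-only genes, and increase as neurons mature. Of 7 arms tested, 5 rose and 0 fell, with a median log2 fold change of 0.84 beside 0.03 over all miRNAs tested, and the summed normalised count of the family was 469323 to 682126 at 12 h and 957632 to 1204480 at 3 days. The 3 miRNAs that carry the seed AGCACCA all rose. miR-29a-3p, the most abundant, had 500419, 340165 and 352499 counts at 12 h and 648832, 670913 and 829195 at 3 days (0.85, SE 0.16, adjusted p = 0.00438). miR-29c-3p had 119063, 82625 and 88437 at 12 h and 178235, 177030 and 212830 at 3 days (0.97, SE 0.14, adjusted p = 0.00168). The 12 h library with the highest values did not reach the lowest of 3 days for either. The passenger arms miR-29b-1-5p (-0.00) and miR-29b-2-5p (0.04) did not pass the test, while miR-29a-5p rose (0.84). With scaling by total reads the median was 0.61 and the same number of arms rose. Over all 925 miRNAs tested 14.4% rose and 11.9% fell, and the counts of this and the following lists stand beside these shares.

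The let-7 family, which promotes differentiation and is itself blocked by LIN28 in progenitors, was lower at 3 days. Of 9 members tested, 6 fell and 0 rose (median -0.46), and the summed normalised count was 1894623 to 2511515 at 12 h and 1509880 to 1766521 at 3 days. let-7c-5p had 422212, 388652 and 365173 counts at 12 h and 256336, 237493 and 243395 at 3 days (-0.67, SE 0.09, adjusted p = 0.00103). The replicates of each time were close and the times far apart. let-7b-5p was as even, with 131516, 137010 and 131664 against 81437, 82569 and 81666 (-0.70, SE 0.08, adjusted p = 0.000378). let-7a-5p overlapped between the times, with 321875, 255174 and 210301 at 12 h and 210829, 164262 and 172771 at 3 days (-0.52, SE 0.16, adjusted p = 0.0338). No member passed the log2 limit of 1, and the number that fell was 2 without the second library of 3 days and 3 without the third.

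The miR-17-92 family and its paralogues, miRNAs of proliferating progenitors that repress cell cycle inhibitors, also fell. Of 12 members 7 fell and 0 rose (median -0.47), and their sum was 139946 to 165361 at 12 h and 103272 to 112768 at 3 days. miR-92a-3p had 16285, 20292 and 21210 normalised counts at 12 h and 12007, 11220 and 12114 at 3 days (-0.71, SE 0.11, adjusted p = 0.00229). miR-17-5p had 14424, 16042 and 19169 at 12 h and 9812, 9815 and 8171 at 3 days (-0.84, SE 0.13, adjusted p = 0.00183). Every 12 h library was above every library of 3 days for both. Of the 6 miRNAs with the seed AAAGUGC, 5 fell (median -0.74). In the miR-30 family 2 of 7 rose, beside 14.4% of all miRNAs (median 0.19). This median was -0.04 with scaling by total reads. In the miR-181 family 0 of 4 passed the test (median -0.08).

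Markers of neurons moved both ways. Of 12 tested, 4 rose and 1 fell (median 0.18), beside 14.4% and 11.9% of all miRNAs. With scaling by total reads 1 rose and 3 fell (median -0.05). The summed normalised count of the list was 6662672.5 to 7215069 at 12 h and 7148029.5 to 7313694 at 3 days, ranges that overlap. The members named next are those that passed the test. miR-153-3p, which represses synaptic vesicle genes, had 57433, 46820 and 55517 normalised counts at 12 h and 89257, 102220 and 105993 at 3 days (0.90, SE 0.11, adjusted p = 0.000612). miR-124-3p, the leading neuronal miRNA, had 73572, 93213 and 120653 at 12 h and 123299, 166645 and 163197 at 3 days (0.66, SE 0.18, adjusted p = 0.023). Its highest library of 12 h lay just under the lowest of 3 days. miR-138-5p, a regulator of spine size, rose by less (0.38, adjusted p = 0.00721), as did miR-376a-3p (0.48), and miR-129-5p fell (-0.37, adjusted p = 0.00951).

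Markers of oligodendrocytes were higher at 3 days. Of 6 listed, 4 were tested and 3 of these rose (median 0.61), beside 14.4% of all miRNAs. The sum was 45452 to 64912 at 12 h and 69760 to 86232 at 3 days. miR-219a-5p, which is needed for oligodendrocyte differentiation, had 10150, 7714 and 8429 normalised counts at 12 h and 17023, 13585 and 14312 at 3 days (0.77, SE 0.13, adjusted p = 0.00285). miR-338-3p, which acts with it, had 25057, 17657 and 18970 at 12 h and 34182, 31844 and 42584 at 3 days (0.82, SE 0.15, adjusted p = 0.00417). The libraries did not overlap for either miRNA. The number that rose was 2 without the second or the third library of 12 h and without the first or the third of 3 days.

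Markers of microglia and myeloid cells did not move as 1 group. Of 7 tested, 1 rose and 3 fell (median -0.13), and the sum was 137469 to 158855 at 12 h and 119903 to 134676 at 3 days. The fall of miR-146a-5p is given above. miR-223-3p, the neutrophil miRNA, had 524, 618 and 528 normalised counts at 12 h and 288, 301 and 334 at 3 days (-0.85, SE 0.15, adjusted p = 0.00289). miR-142a-3p, which is found in all blood-derived cells, had 6305, 6179 and 8046 at 12 h and 4976, 4579 and 4750 at 3 days (-0.52, SE 0.12, adjusted p = 0.0126). Both were lower in every library of 3 days. miR-155-5p, which promotes inflammatory activation, went the other way, with 729, 534 and 603 counts against 982, 808 and 1219 (0.69, SE 0.18, adjusted p = 0.0229). With scaling by total reads 0 of the list rose and 4 fell. miR-21a-5p, which rises in many injuries, had a log2 fold change of -0.13 (adjusted p = 0.369).

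Of 5 blood miRNAs 2 rose and 2 fell (median 0.37). The erythrocyte miRNAs miR-451a (0.43, adjusted p = 0.0419) and miR-144-3p (0.63, adjusted p = 0.0107) rose, whereas both arms of miR-486, which is also made in muscle, fell (-0.50 for the arm shared with miR-3107, -2.11 for miR-486-3p). With scaling by total reads 0 of the 5 rose and 2 fell, and with DESeq2's size factors 1 rose. In the vascular list 1 of 5 rose, beside 14.4% of all miRNAs (median 0.08, and -0.15 with scaling by total reads). It was miR-126a-5p, an endothelial miRNA, with 29067, 31239 and 37376 normalised counts at 12 h and 52140, 52215 and 59755 at 3 days (0.75, SE 0.11, adjusted p = 0.00183). The other arm of that hairpin, miR-126a-3p, was at 0.08. Of 6 astrocyte miRNAs, miR-193a-3p rose (1.13, adjusted p = 0.0122) and miR-455-5p fell (-0.73, adjusted p = 0.00417), with a median of -0.21. None of the 5 miRNAs of muscle and liver passed the test.

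In the lists of response miRNAs the share that rose was near the 14.4% of all miRNAs tested. Of 7 activity-regulated miRNAs 1 rose, miR-212-5p (0.56, adjusted p = 0.0288), and the median was 0.14. Of 8 tested miRNAs tied to axon growth or nerve injury, 1 rose (median 0.03), and it was miR-29a-3p. Neither arm of miR-210, the main hypoxia miRNA, passed the test (median 0.26), nor did any of 3 miR-34 miRNAs (median 0.82).

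**Figure D3:**
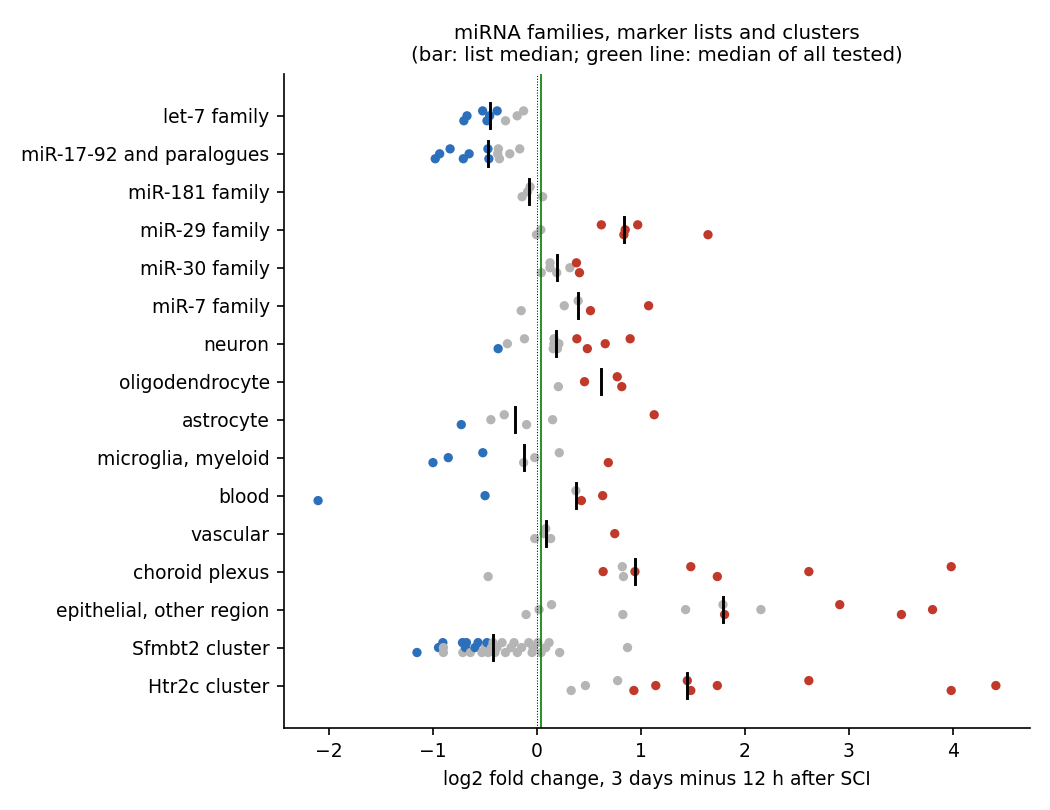
Each point is the log2 fold change at 3 days relative to 12 h of 1 tested member of 16 lists, red or blue with an adjusted p under 0.05 and grey otherwise, with a bar at the median of the list and a green line at the median of all 925 miRNAs (0.03). The miR-29 members lie to the right (median 0.84), and the let-7 (-0.46) and miR-17-92 (-0.47) members to the left. The choroid plexus, Htr2c cluster and epithelial members are spread widest.

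miRNAs of the choroid plexus, the secretory epithelium of the ventricles, were higher at 3 days in 2 of the 3 libraries. Of 10 listed, 9 were tested and 6 rose (median 0.94), 4 of them past the fold limit, while miR-1911-5p had no reads. The summed normalised count was 23870 to 32351 at 12 h and 60768, 45932 and 31008 in the 3 libraries of 3 days, so the third lay within the range of 12 h. miR-204-5p, its most abundant miRNA, had 18835, 20432 and 22658 counts at 12 h and 40240, 31948 and 24082 at 3 days (0.64, SE 0.17, adjusted p = 0.0192). miR-1298-5p had 821, 357 and 937 at 12 h and 7477, 4815 and 797 at 3 days (2.62, SE 0.65, adjusted p = 0.016). The first and second libraries of 3 days carried the rise of miR-1298-5p, and the third overlapped with 12 h. Without the second library of 12 h its log2 fold change was 2.31 (adjusted p = 0.0771).

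Much of that list comes from 1 transcription unit. Introns of Htr2c, the serotonin receptor gene that the choroid plexus transcribes strongly, encode miR-448, miR-764, miR-1264, miR-1298, miR-1912 and their neighbours. Of 11 arms tested there, 8 rose, 7 past the fold limit (median 1.45). miR-1264-3p had 48.0, 45.9 and 78.4 normalised counts at 12 h and 251, 230 and 103 at 3 days (1.74, SE 0.35, adjusted p = 0.00627). miR-1912-3p went from 2.40, 2.41 and 3.62 to 74.3, 56.9 and 10.5 (3.99, SE 0.84, adjusted p = 0.00729). miR-448-3p had 148, 106 and 181 at 12 h and 595, 495 and 139 at 3 days (1.48, SE 0.45, adjusted p = 0.035). The order of the 3 day libraries was the same for these miRNAs, with the third lowest. Without the second library of 12 h the number of arms that rose was 3, and the number of choroid plexus miRNAs that rose was also 3.

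miRNAs of epithelia and of other brain regions showed another order of the same libraries. Of 13 listed, 11 were tested and 4 rose (median 1.79). Their summed normalised count was 2762 to 3463 at 12 h and 5493, 3044 and 17179 at 3 days, highest in the third library and within the range of 12 h in the second. miR-182-5p, a miRNA of sensory and olfactory epithelia, had 96.6 to 279 counts at 12 h and 722, 280 and 3291 at 3 days (2.91, SE 0.77, adjusted p = 0.0214). miR-141-3p, an epithelial miRNA that is also made in olfactory tissue, had 13.2, 12.1 and 10.9 at 12 h and 62.5, 24.0 and 426 at 3 days (3.81, SE 1.04, adjusted p = 0.0237). miR-200a-3p, with the same seed, had 908, 671 and 853 against 1752, 740 and 6032 (1.81, SE 0.59, adjusted p = 0.0484) and overlapped between the times. Without the third library of 3 days the median of the list was 0.41. The number that rose was 0 without the second or the third library of 12 h and 1 without the first. Without 1 of these the adjusted p of miR-141-3p was 0.0682 to 0.0839, and that of miR-182-5p was 0.0957 without the second and 0.0593 without the third. The part of such tissue in single samples in these results was not tested.

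**Figure D4:**
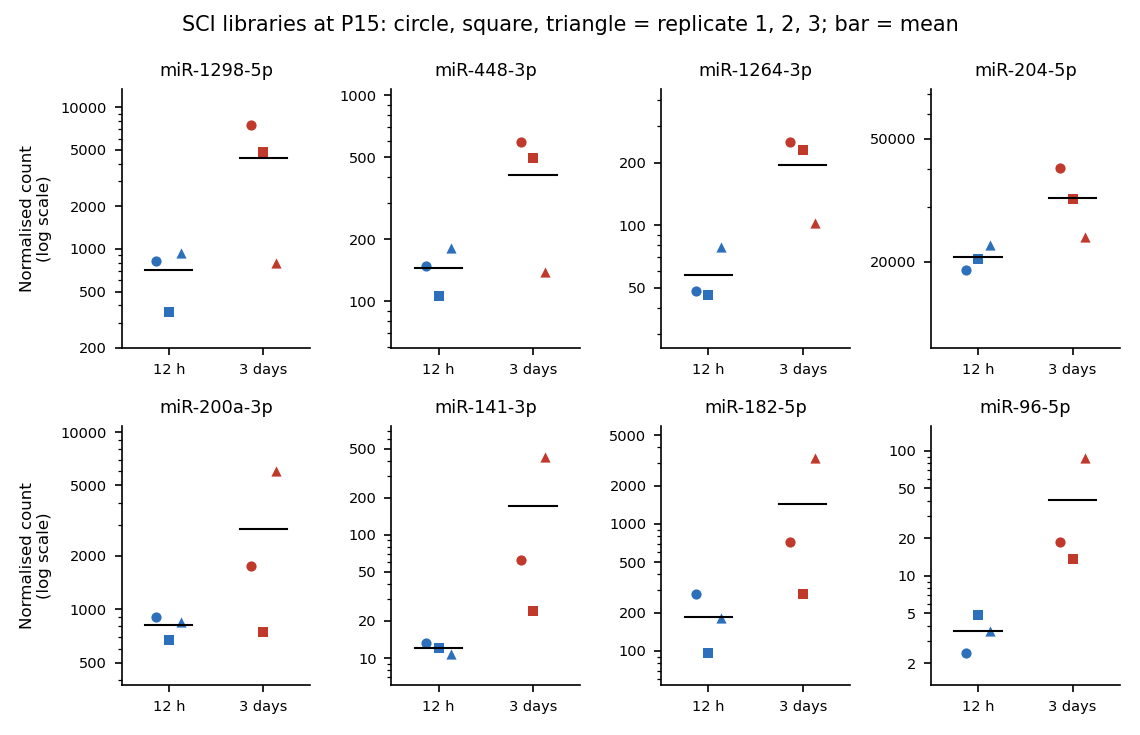
Normalised counts (log axis) in each library of 4 miRNAs of the choroid plexus and 4 epithelial ones, with the circle, square and triangle for replicates 1, 2 and 3 and the bar for the mean. In the choroid plexus miRNAs the third library of 3 days (triangle) is the lowest of its time, as for miR-1298-5p at 797 against 7477 and 4815, and in the epithelial ones it is the highest, as for miR-141-3p at 426.

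miRNA clusters differed in how evenly their arms moved. In the Dlk1-Dio3 domain, a maternally expressed array of neuronal miRNAs, 103 of 105 arms were tested, of which 21 rose and 15 fell, near the 14.4% and 11.9% of all miRNAs (median 0.06, and -0.17 with 12 up and 31 down with scaling by total reads). Beside miR-136-5p and miR-540-5p, miR-381-3p rose (0.84, SE 0.09, adjusted p = 0.000341), as did miR-127-5p (0.79) and miR-300-3p (0.65). In the same array miR-493-5p fell (-0.89, SE 0.17, adjusted p = 0.00563), as did miR-543-3p (-0.63). miR-543-3p had 27295, 27726 and 26336 normalised counts at 12 h and 19935, 17718 and 15009 at 3 days. Neighbours in 1 array thus changed in opposite directions.

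The Sfmbt2 cluster is a rodent array of repeated hairpins in an imprinted gene. Of its 51 arms 35 were tested, and 9 fell and 0 rose (median -0.42), beside 11.9% and 14.4% of all miRNAs. Its hairpins are near-identical copies, so the split of reads between its members is uncertain. miR-467e-5p (-0.69, adjusted p = 0.00306) and miR-669o-5p (-1.16) are examples. Without the second library of 12 h the number that fell was 2. In the Mir17-92a and Mir106b-25 clusters 5 of 12 and 1 of 6 arms fell and 0 rose. In the Mir132-212 cluster 1 of 4 rose, and in the miR-183 cluster 2 of 3 tested rose. Over all miRNAs 14.4% rose and 11.9% fell, and counts of 1 in so few arms cannot be told from those shares.

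The miR-7 family, which is enriched in neurons and neuroendocrine cells, rose in part. Of 5 arms tested 2 rose and 0 fell (median 0.40), beside 14.4% and 11.9% of all miRNAs. miR-7b-3p, on which the study centred, had 974, 1741 and 1923 normalised counts at 12 h and 3685, 3695 and 2374 at 3 days. The third library of 3 days was the lowest of its time and the first of 12 h the lowest of all, without overlap (1.07, SE 0.25, adjusted p = 0.0128). The call was lost in the fit of all P15 libraries. With scaling by total reads the log2 fold change was 0.83, and with the most abundant sequence of the arm in place of the sum it was 0.86. It was 0.84 without the first library of 12 h, 0.98 without the first of 3 days and 0.95 without the second. miR-7a-5p, the main arm, had 79511, 68824 and 80448 at 12 h and 114892, 102328 and 109683 at 3 days (0.51, SE 0.10, adjusted p = 0.00417). miR-7b-5p (0.40, adjusted p = 0.081), miR-7a-1-3p (0.26) and miR-7a-2-3p (-0.15, adjusted p = 0.61) did not pass the test, so the pair that shares the seed AACAAGU differed in its calls. The difference within that pair was not tested.

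The study named 9 miRNAs from its comparison of SCI and SHAM in these samples, so their changes with time are not independent evidence of a direction. Of the 9, 5 rose and 1 fell (median 1.07). Beside miR-7b-3p, miR-1298-5p and miR-671-5p, miR-26a-1-3p rose, from 179, 266 and 398 normalised counts to 666, 592 and 626 (1.16, SE 0.25, adjusted p = 0.00878, and 0.92 without the first library of 12 h). miR-6481 had 124, 94.2 and 88.0 at 12 h and 406, 444 and 320 at 3 days (1.93, SE 0.20, adjusted p = 0.00029). miR-5126, whose most abundant read consists of G and C alone, had 83.2 to 123 at 12 h and 269, 281 and 215 at 3 days (1.33, SE 0.20, adjusted p = 0.00158). After the length correction it was at 0.89. In the fit of all P15 libraries miR-1298-5p, miR-26a-1-3p and miR-5126 lost their calls. miR-551b-5p (-0.41), miR-668-3p (-0.27) and miR-709-3p (-0.79) did not pass the test.

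The most abundant read of some arms also matches a transcript annotated as another RNA class. This held for 4 of the 68 DE miRNAs and 24 of the 925 tested, and cytoplasmic tRNA was not searched. That read of miR-6481 matches the mitochondrial tRNA gene mt-Tf, and that of miR-466k the snoRNA gene Gm22009. For miR-3535 (Gm24148) and miR-677-3p (Mir677) the match is the hairpin's own locus under a snoRNA annotation. The counts therefore include such self-matches and do not measure reads from other RNAs. The change of miR-6481 was 0.39 when reads of 20 to 24 nt alone were counted. Mitochondrial tRNA fragments took a larger share of reads in every library of 3 days, as given above, and their part in the rise of miR-6481 was not tested.

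The 2 arms of a hairpin did not always move together. In 39 of 292 hairpins with both arms tested, both arms changed, 26 in the same direction and 13 in opposite directions. Of all 925 miRNAs tested, 26.3% changed. Whether the arms of a hairpin moved together more or less often than that share gives was not tested. The examples that follow are from the 13. In let-7g the guide arm fell slightly (-0.38, adjusted p = 0.0388) while let-7g-3p had 351, 282 and 353 normalised counts at 12 h and 718, 745 and 805 at 3 days (1.20, SE 0.15, adjusted p = 0.000677). let-7i showed the same split (0.75 for the 3p and -0.46 for the 5p arm). miR-540-5p rose while miR-540-3p fell (-0.42, adjusted p = 0.0337). In miR-32 the less abundant 3p arm fell (-0.74) and the 5p arm rose (0.80). The arms of each hairpin were also ranked by their reads in all P90 libraries, SHAM included. Over 292 hairpins with both arms tested, the arm less read at P90 gained on the other in 142 and lost in 150. That arm was not always the less abundant one in these 6 libraries, as for miR-3470a-5p (mean count 46.7 against 17.5).

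miR-935-5p had no read in the 3 libraries of 12 h and 32, 23 and 30 reads at 3 days. Against 3 reads over the group of 12 h as the floor, it was at least 12.9-fold higher at 3 days (0.712 against 0.0554 RPM). The SHAM libraries of P15 showed the same split, with no read at 12 h and 56, 50 and 25 reads at 3 days, while the P90 libraries held 1 to 17 reads each. The other arm, miR-935, which is far more abundant, was at 0.02 (adjusted p = 0.925).

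Depth, base composition and read length were compared with the change. With every library thinned to 10306576 reads, 669, 674 and 683 miRNAs had at least 10 reads at 12 h and 667, 669 and 665 at 3 days, ranges that meet at 669. At least 1 read was found for 1189, 1199 and 1196 at 12 h and for 1144, 1150 and 1125 at 3 days after thinning, fewer in every library of 3 days. At full depth the order was turned, with 1325, 1199 and 1310 at 12 h and 1420, 1391 and 1382 at 3 days. Over the 925 miRNAs the log2 fold change had a Pearson correlation of -0.136 with GC content (Spearman -0.181) and of -0.019 with length, as a description, since all points share the same 6 libraries. The 170 miRNAs with at least 60% GC had a median of -0.21 and held 14 of the 24 downregulated and 11 of the 44 upregulated ones, and the 75 below 35% had a median of 0.21. The 23 miRNAs whose most abundant read was under 20 nt had a median of 0.84.

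The reads of single miRNAs were slightly shorter at 3 days. Among 258 miRNAs with at least 1000 reads in each library, the mean read length was shorter in all 3 libraries of 3 days than in any of 12 h for 187 (72.5%) and longer for 7. The median change was -0.067 nt. Over all miRNA reads the mean length was 21.85 to 21.88 nt at 12 h and 21.74 to 21.78 nt at 3 days. The P15 SHAM libraries were also shorter at 3 days, with 21.87 to 21.90 nt at 12 h and 21.73 to 21.78 nt at 3 days. In injured cortex of P90 the range was 21.68 to 21.71 nt at both times.

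Whether the change with time differed from that of the SHAM cortex was tested in the 12 libraries of P15. None of 935 miRNAs passed an adjusted p of 0.05 in edgeR's quasi-likelihood test (0% called), with 188 at an unadjusted p under 0.05, while DESeq2 called 60. The first and second SHAM libraries of 3 days had miRNA shares of 58.6 and 56.5% of reads, against 70.8% in the third and 73.9 to 74.5% in the SHAM libraries of 12 h, and without these 2 libraries the number was 0, with 46 at an unadjusted p under 0.05. Without the third SHAM library of 3 days it was 345. In the same fit 93 of the 935 changed with time in SHAM, and 13 of 913 did when the third library stood alone for 3 days, where its spread is assumed to be like that of the other groups. A difference between injured and SHAM cortex was therefore not shown, nor was its absence.

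Side by side, several changes of the injured cortex had a counterpart in SHAM. miR-29b-3p had 27232, 37091 and 55763 counts in SHAM at 12 h and 99231, 41420 and 97023 at 3 days, normalised over the 12 libraries of P15. Its log2 fold change in SHAM was 0.99 (SE 0.32, adjusted p = 0.0712), and 1.33 (adjusted p = 0.0374) with the third library alone. miR-486-3p fell in SHAM too (-1.79, SE 0.33, adjusted p = 0.0168), from 142, 175 and 168 to 73, 39 and 30. miR-540-5p rose there (1.52, adjusted p = 0.0168), and miR-17-5p fell (-0.996, adjusted p = 0.0231). miR-7b-3p rose in SHAM (2.20, SE 0.54, adjusted p = 0.0306), with 738, 3588 and 711 counts at 3 days against 419, 336 and 337 at 12 h, so the second library carried most of its change.

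Other miRNAs depended on which SHAM libraries were used. miR-744-5p had 186051, 222820 and 6431 counts in SHAM at 3 days and 26230, 17596 and 15867 at 12 h. Its change in SHAM was 2.80 (adjusted p = 0.0429) with all libraries and -1.58 (adjusted p = 0.0162) with the third alone, the direction of the injured cortex. miR-1224-5p behaved alike, with 1.93 (adjusted p = 0.0755) and -1.40 (adjusted p = 0.0374). The 5 miRNAs with the smallest p for a difference between injury and SHAM were miR-202-5p, miR-6481, miR-214-3p, miR-671-5p and miR-1912-3p, none past the adjusted threshold (adjusted p = 0.144 for miR-6481).

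In the adult cortex the same interval after injury gave other changes, and library composition also moved otherwise. miRNAs took 77.0 to 77.7% of reads at P15 12 h and 68.7 to 70.6% at P15 3 days. At P90 they took 70.2 to 74.1% and 74.1 to 75.0%. Fragments of small nuclear RNA took 0.248 to 0.366% and 0.790 to 0.829% at P15, and 0.213 to 0.340% and 0.143 to 0.176% at P90. The part of composition in the differences between ages was not tested. The difference between the change at P15 and at P90 passed the test for 225 of 849 miRNAs (26.5%), 148 with the larger value at P15 and 77 with the lower (123 and 102 with DESeq2, 115 and 99 with DESeq2's size factors in edgeR). These tests share the 6 libraries of P15 with the comparison above. In the same fit of 12 SCI libraries, the change with time at P90 passed the test for 80 of 849, 16 of them past the fold limit. The 68 DE miRNAs of P15 come from the fit of 6 libraries, so the 2 counts are not directly comparable.

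miR-29c-3p rose at P15 and fell at P90 (-0.71, SE 0.15, adjusted p = 0.0118). Normalised over the 12 SCI libraries, its counts were 83917, 58408 and 60886 at P15 12 h, 125711, 124772 and 148901 at P15 3 days, 375032, 501264 and 505527 at P90 12 h, and 274602, 314101 and 258082 at P90 3 days. The P15 cortex stayed below the adult level at both times. The difference in change was 1.68 (SE 0.21, adjusted p = 9.96e-05). let-7c-5p moved in reverse, falling at P15 and rising at P90 (0.47, SE 0.09, adjusted p = 0.00482), with 201644, 191513 and 211453 counts at P90 12 h and 285178, 263391 and 290657 at P90 3 days. The difference for let-7c-5p was -1.14 (SE 0.12, adjusted p = 3.51e-05).

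miR-540-5p and miR-383-5p followed the same 2 patterns at lower levels. miR-540-5p fell at P90 (-0.80, adjusted p = 0.0125), with 553, 597 and 768 counts at 12 h and 375, 433 and 292 at 3 days, against 53, 65 and 56 and then 242, 215 and 211 at P15. miR-383-5p fell at P15 (-0.95, SE 0.12, adjusted p = 0.000834) and rose at P90 (0.66, adjusted p = 0.00482). miR-136-5p reached the adult range at 3 days, with 33934, 35247 and 34324 counts at P15 against 38598, 32432 and 27681 at P90 12 h and 25595, 27345 and 27109 at P90 3 days.

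By list, the difference between ages was lower at P15 for 8 of 9 let-7 miRNAs (median -0.84) and 3 of 12 of the miR-17-92 family (-0.40). It was higher for 5 of 7 miR-29 arms (0.99), 5 of 12 neuron markers (0.43), 3 of 4 oligodendrocyte markers (0.65) and 6 of 10 arms of the Htr2c cluster (2.34), beside a median of 0.14 over all tested. Over all 849 miRNAs tested the difference was higher at P15 for 148 and lower for 77. For miR-1298-5p the difference of 6.02 rested on 2 libraries of P15 3 days and 1 of P90 12 h, with 5274, 3394 and 558 counts in the former group and 7308, 536 and 584 in the latter.

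**Figure D5:**
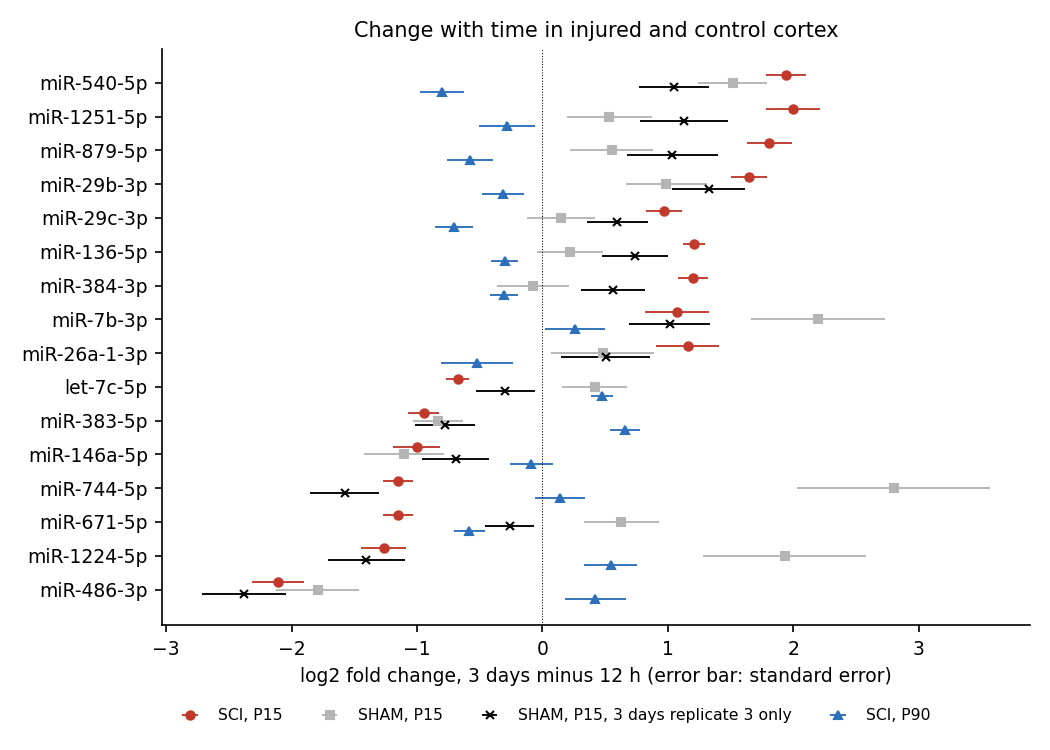
Log2 fold change at 3 days relative to 12 h (point) with its SE (bar) of 16 miRNAs in injured P15 cortex, SHAM P15 cortex, SHAM P15 cortex with the third library alone at 3 days, and injured P90 cortex. miR-29b-3p lies at 1.65, 0.99, 1.33 and -0.31 in these 4 comparisons, and miR-744-5p lies on opposite sides of 0 in the SHAM comparison with and without the first and second libraries of 3 days.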

How the data were processed

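The authors dropped reads with undetermined bases, cut off the 3′ adapter and the random adapter bases, and deposited the counts of each distinct read of 17 to 34 nt per library, without normalisation. The submitters' processing notes name GRCm38.

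Here, a hairpin arm received every read of 18 nt or more that matched it exactly, whole and in sense. Of 1222 hairpins used, 1005 came from RefSeq and the rest from GENCODE M21 (GRCm38), and arms were divided between the annotated mature sequences or at the midpoint of the hairpin. Reads were summed per arm, arms with the same sequence were merged, and reads matching more than 1 miRNA (0.123 to 0.141% of miRNA reads in the 6 libraries) were left out. Of 1736 miRNAs with reads, 1318 had a RefSeq mature sequence.

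Counts of the 6 libraries were scaled by TMM and compared with edgeR 4.0.16 (quasi-likelihood test, R 4.3.3) over miRNAs with a mean normalised count of at least 5. "Rose" and "fell" mean a Benjamini-Hochberg adjusted p under 0.05 over all miRNAs tested, and DE a log2 fold change past 1 as well. SE was taken as the size of the log2 fold change over the root of F. Differences between contrasts were fitted in the 12 libraries concerned, with no fold limit. On simulated counts over 914 miRNAs for this comparison, the test recovered 84.8% of changes of 1.5 on the log2 scale and 100% of changes of 2 and 3. The exact permutation test of 3 against 3 cannot go below p = 0.1, so it was not used for calls. Groups were taken from the sample labels, with libraries labelled wt or control read as SHAM. Labels and methods do not say that replicates were separate litters or runs, so p-values measure the spread between these samples.

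Alternatives were DESeq2 1.42.0, other scalings, filters, read sets and thresholds, GC and length corrections (loess, span 0.75), a block for the replicate number, all P15 libraries in 1 fit, and each library left out. The list medians under total-read scaling, the list counts without single libraries, and the SHAM change from the third library of 3 days alone were added after the data were seen. The miRNAs named by rule were the 10 largest rises and falls without overlap at a mean count of at least 50. The 5 with the smallest p in each direction at a mean of at least 1000 were added. So were the largest members of the lists, the miRNAs the study names and the miR-7 family. The 5 with the smallest p in each difference were named as well. The comparison and lists were chosen with earlier results of these data known. miR-935-5p, the arm pairs and miRNAs matching other RNA classes were named after their values were seen. So were the list members outside that rule, such as miR-153-3p, miR-124-3p, miR-223-3p, miR-155-5p, let-7b-5p and miR-381-3p. Those examples are therefore not typical of their lists, whose counts and medians are given. Python 3.11.15, pandas 2.3.3 and matplotlib 3.10.9 were used for assignment and plots.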

Additional observations from a re-analysis of the deposited data

Results flagged for a closer look

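The results below differed between ages: the change from 12 h to 3 days after SCI at P15 minus that at P90 passed an adjusted p of 0.05 in edgeR's quasi-likelihood test. This held for 225 of 849 miRNAs. Values are differences of log2 fold changes, positive where the change was more upward at P15.

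Among the abundant miRNAs named for their change at P15, the difference was 1.97 for miR-29b-3p, 1.52 for miR-136-5p, 1.51 for miR-384-3p, 2.40 for miR-879-5p, 1.26 for miR-24-1-5p, -1.28 for miR-744-5p, -0.90 for miR-146a-5p, -1.80 for miR-1224-5p and -0.56 for miR-671-5p. Among less abundant ones it was 2.75 for miR-540-5p, 2.29 for miR-1251-5p, 2.47 for miR-202-5p, 1.98 for miR-3106-5p, -2.52 for miR-486-3p, -1.80 for miR-1247-5p, -2.55 for miR-466k, -1.49 for miR-1188-5p and -2.02 for miR-669o-5p.

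Family members differed in the direction of their family: 1.25 for miR-29a-3p, 1.68 for miR-29c-3p, 0.94 for miR-29c-5p, -1.14 for let-7c-5p, -0.99 for let-7a-5p, -0.66 for let-7f-5p and -0.69 for let-7g-5p. The difference was -1.60 for miR-383-5p.

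Among the choroid plexus and epithelial miRNAs, which were uneven between replicates, the difference was 6.02 for miR-1298-5p, 8.10 for miR-1912-3p, 4.30 for miR-1264-3p, 4.95 for miR-141-3p and 3.26 for miR-182-5p. For miR-3470a-3p it was -6.54, with low counts in every group but P90 at 3 days. Normalised over the 12 SCI libraries, its counts were 27.9, 10.2 and 19.9 at P15 12 h and 7.3, 4.0 and 4.0 at P15 3 days. At P90 they were 8.1, 12.1 and 1.7 at 12 h and 140, 207 and 151 at 3 days. Of the miRNAs the study names, miR-26a-1-3p differed by 1.69, miR-6481 by 1.37 and miR-5126 by 1.39.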

How the results depend on the processing

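The number of DE miRNAs (68) was 55 to 84 under the alternatives of test, scaling, filter, read set, depth, GC and length, and 51 to 71 when 1 library was left out. It was 20 with all 12 P15 libraries in 1 fit (67 of the 68 kept their direction), whose spread includes the SHAM libraries that stand apart, 192 with a log2 limit of 0.5 and 243 with no limit. The replicate numbers did not pair the samples (correlations of same-numbered libraries 0.070, 0.031 and -0.067). With the replicate block 70 were called, 65 of them shared with the fit without it, and 68 with the block and the GC correction. The block gave 0 for injury by time and 196 for age by time.

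The difference between SCI and SHAM (0 called) was 60 with DESeq2, 71 without a filter, and 0 to 345 when 1 library was left out. The difference between ages (225) was 196 to 225 under the alternatives and 162 to 243 when 1 library was left out. Of the miRNAs recomputed one by one under each alternative, miR-7a-2-3p, which was not called, was the only one to change sign, with -0.34 to 0.038 when 1 library was left out (0.038 without the third of 12 h).

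In the fit of all 12 P15 libraries, 1 miR-29 arm, 1 member of the miR-17-92 family and 0 let-7 members passed the test. The cause was not tested. The depth of 10306576 reads in 1 library limits miRNAs near 3 reads (0.291 RPM).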
